A study of Rattus norvegicus with 4 samples.

Results

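The nuclear genes of respiratory complexes I, III and IV, of cytochrome c and of the ATP synthase were measured in PC12, a cell line grown from a rat pheochromocytoma (a tumour of the adrenal medulla). They were taken by symbol: probes other than controls whose RefSeq accession belongs to a rat gene with a symbol starting Nduf, Uqcr, Cox4, Cox5, Cox6, Cox7, Cox8 or Atp5, or to Cyc1 or Cycs. This gave 59 of 41012 probes, for 50 genes: 13 of complex I, 6 of complex III with cytochrome c, 13 of complex IV, 15 of the ATP synthase and 3 complex I assembly factors. The rule fits 116 protein-coding symbols of the RefSeq table, so the 50 are part of the set, and succinate dehydrogenase (complex II) is left out. One PC12 line carried a plasmid coding for MAX (MAX vector) and the other an empty vector, both introduced by nucleofection and followed by selection with a compound the labels call E418. Cells were taken from each line at passages 8 and 13 for 2 one-colour (Cy3) arrays a group, with no label saying which replicate is which passage. Each group is thus 1 transfected line, and p-values measure the spread between samples of a line. PC12 is known to carry a disrupted Max gene, whose product is the partner with which MYC proteins bind DNA. On all 4 arrays the probe for Max itself was dimmer than the limit for being well above background (log2 signal -7.61 and -7.94 with the MAX vector, -8.36 and -8.07 with the empty vector), so it does not check the labels.

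Complex I takes electrons from NADH and passes them to ubiquinone, complex III passes them on to cytochrome c, and complex IV hands them to oxygen. All 3 pump protons across the inner mitochondrial membrane, and the ATP synthase lets the protons back to make ATP. Most subunits of these complexes are encoded in the nucleus and imported, and some have a further isoform, encoded by another gene, that is used in certain tissues or oxygen conditions. MAX and MYC together bind the E-box CACGTG and are known to act on genes of mitochondrial biogenesis, while the hypoxia-inducible factors are known to lower respiration in other cells.

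In cells with the MAX vector, 45 of the 46 genes bright enough to test had log2 fold changes between -0.31 and 0.14 over the empty vector cells, and the other was Cox4i2, the alternative isoform of complex IV subunit 4, at 0.74. Signals are log2 processed intensity minus the array's 75th percentile. The limma fit covered all 25355 genes with a probe that 2 or more arrays measured well above background, each by its brightest probe. Of these, 6316 had a gene symbol. The others were counted by accession, so a gene may be counted more than once in shares of all genes. At an adjusted p under 0.05 in limma, 0 of the 46 genes were called, 1 had an unadjusted p under 0.05 (Cox4i2), and the other 45 had an adjusted p of at least 0.453. Over all genes 213 were called, or 0.840% (0.576% higher and 0.264% lower), and 16.1% had an unadjusted p under 0.05. A fitted change over 1.5-fold was seen for 1 of the 46 genes, Cox4i2, against 9.71% of all genes. The median log2 fold change of the 46 was -0.024, beside -0.019 over all genes, and the median size without regard to sign was 0.058, beside 0.16 over all genes and 0.11 over the 2536 brightest. Fitted values were above 0 for 18 of the 46 genes, against 46.5% of all genes. Both MAX vector arrays lay above both empty vector arrays for 7 of the 46 genes, against 24.2% of all genes, and below both for 9, against 26.0%. The groups thus stood apart for a smaller share of the 46 than of all genes (50.2% in either direction), and for the other 30 genes they overlapped. The members are bright on these arrays, between 138.6 and 203800 signal units with a median of 25350, and all 46 were well above background on every array.

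**Figure D1:**
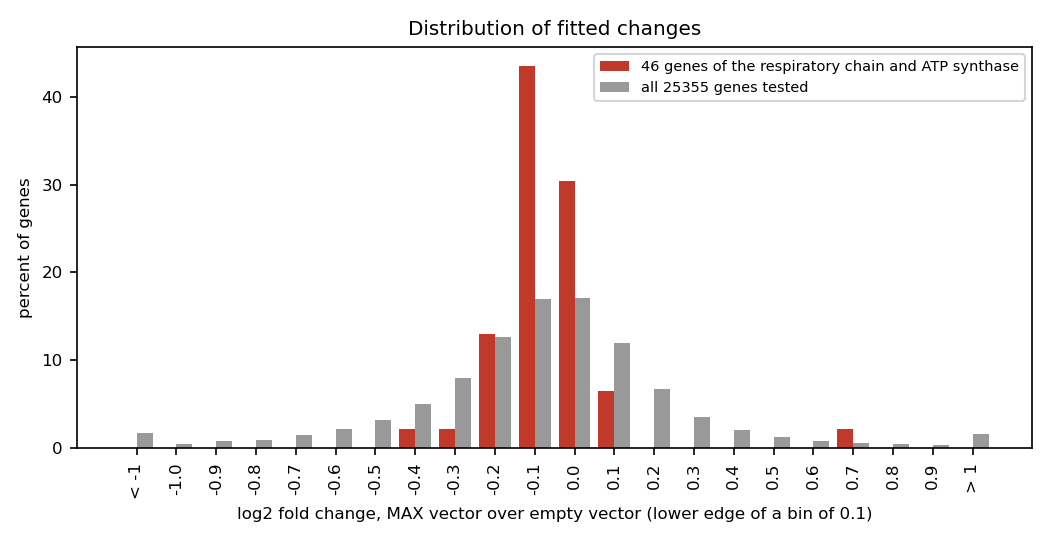
Percent of genes (vertical axis) in bins of 0.1 of the fitted log2 fold change, MAX vector over empty vector (horizontal axis), for the 46 respiratory chain and ATP synthase genes (red) and for all 25355 genes tested (grey). Of the 46 genes, 43.48% lay between -0.1 and 0 and 30.43% between 0 and 0.1, beside 16.94% and 17.05% of all genes, and the lone red bar at 0.7 is Cox4i2.

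The 95% intervals of the fit, taken gene by gene, show which sizes of change the arrays leave possible. For 45 of the 46 genes the interval lay inside a 2-fold change in either direction, and for 43 inside a 1.5-fold change, against 82.5% and 57.6% of all genes tested. Of the 46, 36 lay above the 90th percentile of signal. Shares over genes of like brightness were not taken, here or for the overlap of the groups. The median distance from a fitted value to the end of its interval was 0.28 on the log2 scale. The interval of Cox6a2 was the one that reached past 2-fold, and those of Cox6a2, Cox4i2 and Ndufs4 were the 3 that reached past 1.5-fold.

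**Figure D2:**
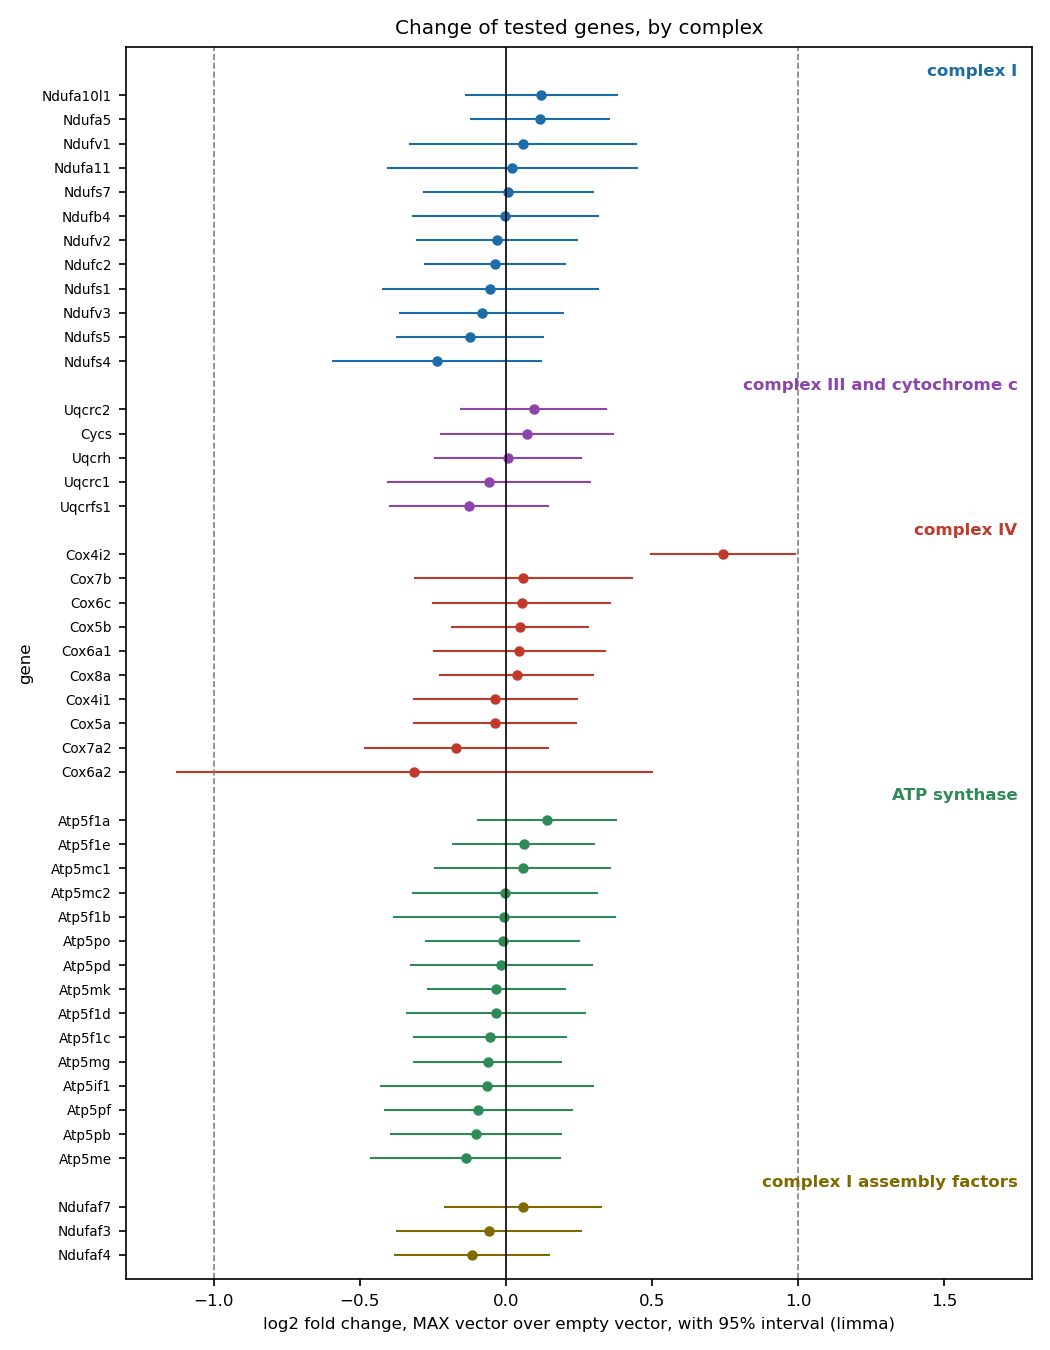
Fitted log2 fold change, MAX vector over empty vector, with its 95% interval from limma (horizontal axis) for 45 of the 46 tested genes (rows, by complex; n = 2 arrays per group). The dashed lines stand at a 2-fold change; all intervals drawn but that of Cox4i2 cross 0, and that of Cox6a2 is the widest.

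Complex IV, cytochrome c oxidase, held the largest and the smallest fitted values of all 46 genes. Cox4i2 encodes the subunit 4 isoform that is known for its expression in lung and, in human and mouse cells, for its induction by HIF1 at low oxygen. Its log2 signal was 2.92 and 2.91 on the MAX vector arrays, against 2.13 and 2.21 on the empty vector arrays. The groups did not overlap, and the arrays of a group differed by less than 0.1. Cox4i2 was 1.67-fold higher with the MAX vector (log2 fold change 0.74 with an SE of 0.09, from 2 arrays in each group; 95% interval 0.50 to 0.99), with an unadjusted p of 0.00116 and an adjusted p of 0.0702 in limma, and so did not pass over all genes. Its fold was alike under all 17 alternatives, at 0.70 to 0.78 on the log2 scale, while its adjusted p ran from 0.00585 to 0.464. It passed under 3 of them: with normexp background correction (adjusted p = 0.00585 in limma), with genes well above background on all 4 arrays (0.0357) and with a variance trend on intensity (0.00709). The brightness filters, the mean of probes, the intensity trend and the replicate block could not move the fold of a gene with 1 bright probe. The authors' value table holds the same data up to a baseline. Median scaling and the other percentile settings shift all genes of an array by the same amount. The slide settings and leaving out MAX vector replicate 1 gave the same fit. Cox4i1, the common isoform of the same subunit, had 4.61 and 4.46 on the MAX vector arrays, against 4.55 and 4.59 on the empty vector arrays. The groups overlapped, and the log2 fold change was -0.04 ± 0.10 (adjusted p = 0.883 in limma; 95% interval -0.32 to 0.24). Each of these isoform genes rests on 1 probe, and the difference between their changes was not tested.

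**Figure D3:**
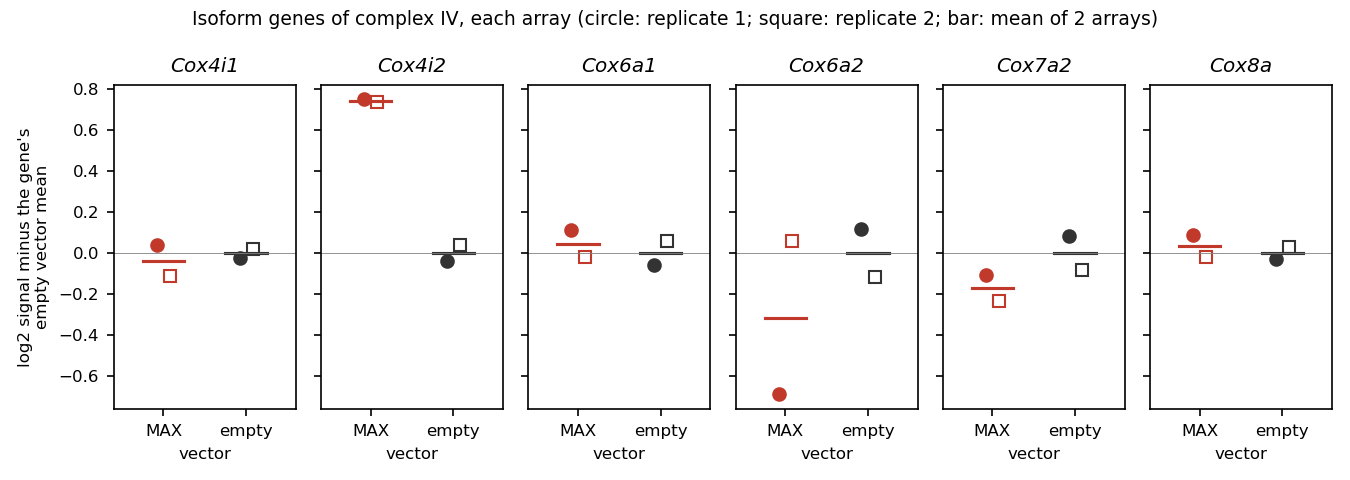
Log2 signal minus the gene's empty vector mean (vertical axis) on each array for 6 isoform genes of complex IV, with the MAX vector arrays (red) left of the empty vector arrays (black) in each panel; bars are means of 2 arrays, circles replicate 1 and squares replicate 2. Both MAX vector arrays of Cox4i2 stand near 0.74, the 2 MAX vector arrays of Cox6a2 stand apart from each other, and the means of the other 4 genes lie between -0.17 and 0.05.

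The other isoform genes of complex IV gave no pattern of that size. Cox6a2, the heart and skeletal muscle isoform of subunit 6A, had -2.09 and -1.34 with the MAX vector, against -1.28 and -1.52 with the empty vector. Its MAX vector arrays differed by more than the groups did, and its log2 fold change of -0.31 ± 0.29 (adjusted p = 0.642 in limma) was 0.06 without MAX vector replicate 1 and -0.69 without MAX vector replicate 2. The common isoform gene Cox6a1 had 0.05 ± 0.10. Cox7a2, the common isoform gene of subunit 7A, had 5.97 and 5.84 with the MAX vector, against 6.16 and 6.0 with the empty vector. Those groups did not overlap, though the gap between them was narrower than that between arrays of a group, and the log2 fold change was -0.17 ± 0.11 (adjusted p = 0.525 in limma). Cox8a, the common isoform gene of subunit 8, had 0.04 ± 0.09. The probes for the muscle isoform Cox8b, for Cox8c and Cox6b2, which are known from testis, and for Uqcrq of complex III were below the filter, the first 3 well above background on none of the 4 arrays and Uqcrq on 1. No fold is given for these 4. The remaining subunit genes Cox5a, Cox5b, Cox6c and Cox7b had fitted values between -0.04 and 0.06. The 2 probes for Cox5b, which encodes a zinc-binding subunit, disagreed: the brighter one gave 0.05, with both MAX vector arrays above both empty vector arrays, and the other gave -0.17, with both below. The median over the 10 tested genes of complex IV was 0.041, with 6 above 0.

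Complex I genes held 0 calls and 0 genes at an unadjusted p under 0.05 in limma, and the 13 tested genes had a median log2 fold change of -0.032, with 5 above 0. Ndufs4, whose product is an accessory subunit needed for a stable complex, was the lowest. It had -1.91 and -2.18 on the MAX vector arrays, against -1.83 and -1.79 on the empty vector arrays. The groups did not overlap, though MAX vector replicate 1 was nearer to the empty vector arrays than to MAX vector replicate 2, and the log2 fold change was -0.24 ± 0.13 (adjusted p = 0.453 in limma). It was -0.37 without MAX vector replicate 1 (adjusted p = 0.298) and -0.10 without MAX vector replicate 2. Ndufs5, another accessory subunit gene, had 5.45 and 5.37 with the MAX vector, against 5.56 and 5.51 with the empty vector, also without overlap (-0.12 ± 0.09, adjusted p = 0.558 in limma). At the upper end, Ndufa10l1 had 0.12 ± 0.09 and Ndufa5 had 0.12 ± 0.08, and neither overlapped between the groups (Ndufa5 is an accessory subunit gene). The 3 probes for Ndufa10l1 gave 0.05, 0.12 and 0.16. The core subunit genes that carry the flavin and iron-sulfur clusters lay close to 0: Ndufv1 had 0.06 ± 0.14, Ndufv2 -0.03 ± 0.10, Ndufs1 -0.05 ± 0.13 and Ndufs7 0.01 ± 0.10. The 2 probes for Ndufc2 gave -0.04 and, on the dimmer one, -0.50, from MAX vector values of -0.89 and 0.20 against empty vector values of 0.29 and 0.02. On that dimmer probe MAX vector replicate 1 alone was low.

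Complex III and cytochrome c genes also held 0 calls in limma. Uqcrfs1, which encodes the Rieske iron-sulfur protein, had 4.84 on both MAX vector arrays, against 4.89 and 5.03 on the empty vector arrays (-0.13 ± 0.10, adjusted p = 0.580 in limma). Uqcrc2, a core subunit gene, had 4.11 and 4.02 with the MAX vector, against 3.97 on both empty vector arrays (0.09 ± 0.09, adjusted p = 0.646). Neither gene overlapped between the groups, and they lay on opposite sides of 0. The partner core subunit gene Uqcrc1 had -0.06 ± 0.12, and Uqcrh, the hinge protein gene, had 0.01 ± 0.09. Cycs, which encodes the electron carrier cytochrome c, had 0.07 ± 0.11 by its brightest probe and -0.05 and 0.08 by its other probes. The median of the 5 tested genes was 0.007.

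The 15 ATP synthase genes had a median of -0.034, with 3 above 0 and 12 below, and 0 calls or unadjusted p-values under 0.05 in limma. Atp5f1a, the gene of the catalytic head's alpha subunit, had 4.68 and 4.65 on the MAX vector arrays, against 4.51 and 4.54 on the empty vector arrays. The groups did not overlap, and at 0.14 ± 0.08 (adjusted p = 0.497 in limma) this was the highest fitted value after Cox4i2 among the 46 genes. Atp5f1b, which encodes the catalytic beta subunit of the same head, had 5.35 and 5.06 with the MAX vector, against 5.20 and 5.23 with the empty vector, with overlap (-0.0068 ± 0.14). Atp5me, a membrane-part subunit gene, was the lowest at -0.14 ± 0.12 (adjusted p = 0.609 in limma), from 6.72 and 6.49 with the MAX vector, against 6.74 and 6.75 with the empty vector. It was -0.25 without MAX vector replicate 1 and -0.025 without MAX vector replicate 2. Atp5if1, whose product blocks the enzyme when it would run backwards and split ATP, had -0.07 ± 0.13. Atp5f1e, the gene of the epsilon subunit, had 6.90 and 6.83 with the MAX vector, against 6.80 and 6.81 with the empty vector, without overlap (0.06 ± 0.09). The genes Atp5mc1 and Atp5mc2, whose products give the same mature ring subunit c, had 0.06 ± 0.11 and -0.0034 ± 0.11. The other probe for Atp5mc2 gave 0.19, without overlap between the groups. Fitted values of the remaining 8 genes lay between -0.10 and -0.011.

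MAX binds the E-box as a dimer, so the promoters that hold one are shown, though binding at these genes was not measured. RefSeq promoter windows (build GRCr8, 250 bases before the annotated start and 50 from it) matched 44 of the 50 genes, and CACGTG, which reads the same on both strands, lay in 4 of these 44 windows (9.09%), against 6.42% of 33469 windows of all genes. The 4 windows are chr10:81523296-81523595 (minus strand) for Atp5mc1, chr8:54130358-54130657 (minus strand) for Atp5mg, chr2:196123688-196123987 (minus strand) for Atp5pb and chr5:43401545-43401844 (plus strand) for Ndufaf4. Each is written 5′ to 3′ along the gene, with CACGTG in capitals.
Atp5mc1: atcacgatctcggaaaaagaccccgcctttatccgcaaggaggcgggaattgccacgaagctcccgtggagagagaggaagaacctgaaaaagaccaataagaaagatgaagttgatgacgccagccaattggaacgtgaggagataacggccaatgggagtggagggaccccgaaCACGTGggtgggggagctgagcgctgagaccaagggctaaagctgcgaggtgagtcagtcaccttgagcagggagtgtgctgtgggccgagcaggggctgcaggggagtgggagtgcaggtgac
Atp5mg: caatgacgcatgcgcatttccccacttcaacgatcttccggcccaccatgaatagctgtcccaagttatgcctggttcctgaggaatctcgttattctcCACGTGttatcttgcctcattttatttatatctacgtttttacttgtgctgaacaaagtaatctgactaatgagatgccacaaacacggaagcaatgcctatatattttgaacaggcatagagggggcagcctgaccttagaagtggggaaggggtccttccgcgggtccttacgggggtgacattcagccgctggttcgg
Atp5pb: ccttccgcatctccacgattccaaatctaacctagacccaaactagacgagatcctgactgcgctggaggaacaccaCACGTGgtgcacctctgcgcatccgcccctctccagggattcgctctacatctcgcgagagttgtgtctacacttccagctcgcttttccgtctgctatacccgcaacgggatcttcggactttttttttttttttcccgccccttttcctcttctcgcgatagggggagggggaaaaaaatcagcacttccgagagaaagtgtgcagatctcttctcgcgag
Ndufaf4: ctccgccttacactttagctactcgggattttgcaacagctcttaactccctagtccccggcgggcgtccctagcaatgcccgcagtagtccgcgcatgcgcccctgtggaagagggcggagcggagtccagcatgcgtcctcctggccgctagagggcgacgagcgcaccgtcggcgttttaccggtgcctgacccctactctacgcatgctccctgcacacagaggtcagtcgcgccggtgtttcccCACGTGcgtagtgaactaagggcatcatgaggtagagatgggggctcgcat
The E-box started 74, 151 and 173 bases before the annotated start in Atp5mc1, Atp5mg and Atp5pb, and 1 base before it in Ndufaf4. Their log2 fold changes were 0.06 ± 0.11, -0.06 ± 0.09, -0.10 ± 0.10 and -0.12 ± 0.09, and the 36 tested genes with a window and no E-box in it had a median of -0.033. The letters ACGTG on either strand, a form of the core that HIF proteins bind and which CACGTG contains, lay in 15 of the 44 windows (34.1%), against 19.3% of all windows. Other forms of that core were not counted. GCGCATG on either strand, part of the site of NRF1, a known regulator of respiratory genes, lay in 10 (22.7%), against 3.77%. CCGGAAG on either strand, a core bound by ETS proteins such as GABPA, lay in 13 (29.5%), against 8.75%. Cox4i2 is not among the 44 genes, so these counts say nothing of its promoter. The windows of all genes were not matched to the 44 for gene type or base content. A match of letters is a description and not a bound site.

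The 3 complex I assembly factors had fitted values between -0.12 and 0.06. Ndufaf4, whose product helps build the complex, had 1.94 and 1.86 on the MAX vector arrays, against 2.06 and 1.97 on the empty vector arrays. It did not overlap between the groups by this probe (-0.12 ± 0.09, adjusted p = 0.595 in limma), and its other probes gave -0.07 and -0.02. Ndufaf3 had -0.06 ± 0.11 and Ndufaf7 0.06 ± 0.10.

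**Figure D4:**
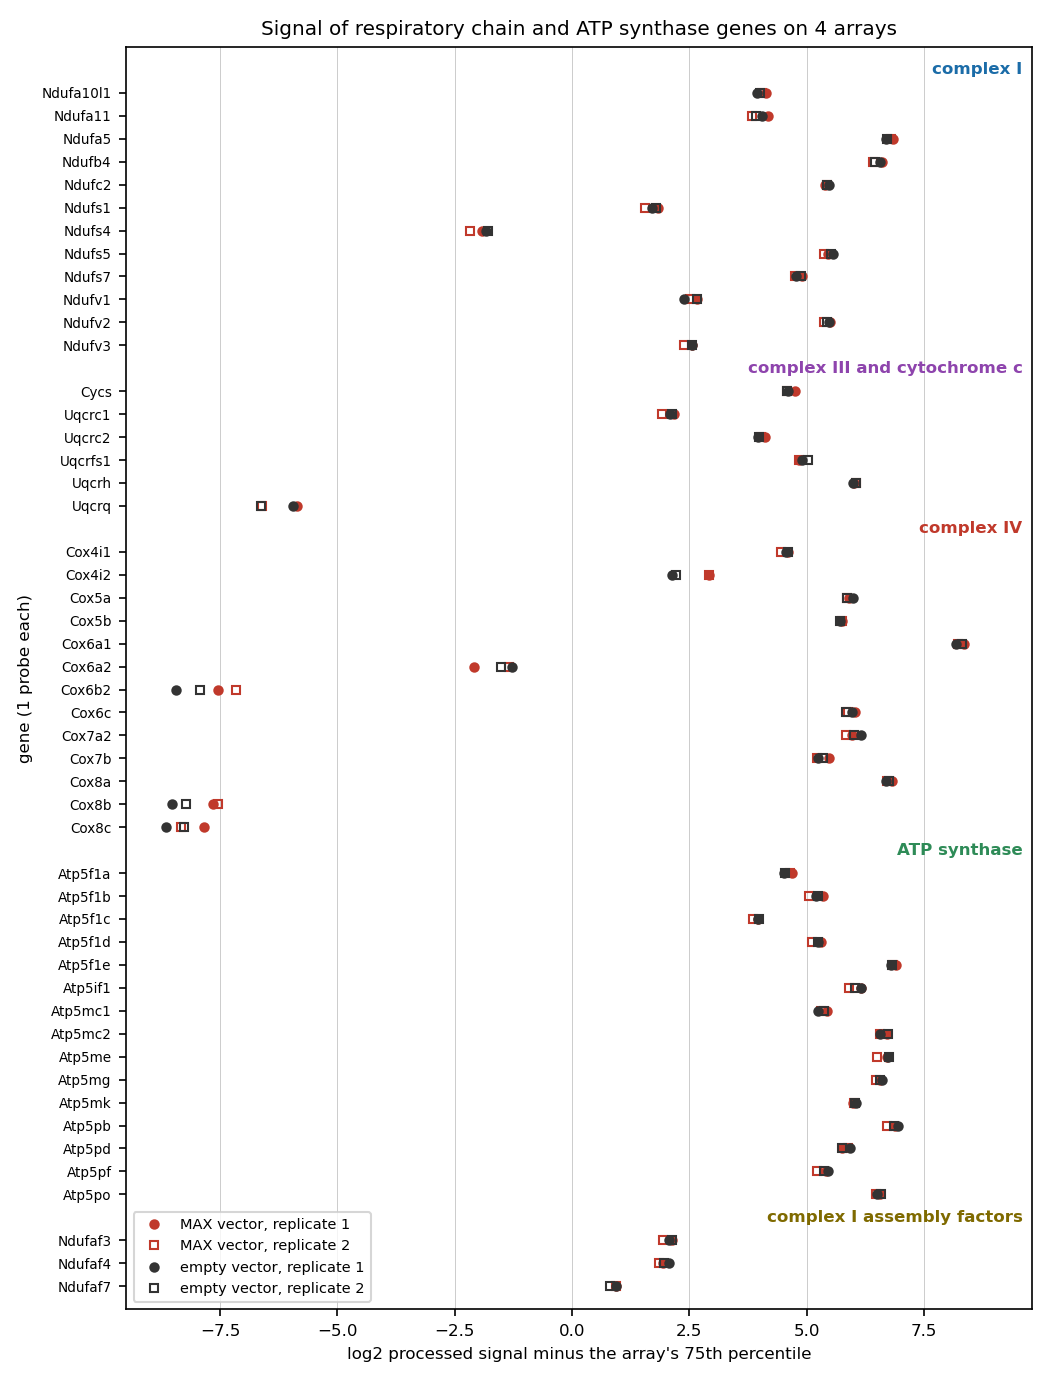
Log2 processed signal minus the array's 75th percentile (horizontal axis) on each of the 4 arrays for all but 1 of the 50 genes (rows, by complex), MAX vector in red and empty vector in black, circles for replicate 1 and squares for replicate 2. The 4 points of most genes lie on top of each other, Cox4i2 separates by group, and Uqcrq, Cox6b2, Cox8b and Cox8c lie far to the left near background; positions along the axis depend on the probe and are not compared between genes.

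The MAX vector arrays differed from each other for these genes, with a median size of 0.13, and the empty vector arrays with one of 0.07, beside 0.15 and 0.12 over all genes. On MAX vector replicate 1, 39 of the 46 genes were higher than on MAX vector replicate 2, with a median difference of 0.13, whereas 47.9% of all genes were, with a median of -0.012. Among the 2536 brightest genes tested 73.0% were, with a median of 0.079. Between the empty vector arrays, 19 of the 46 genes were higher on replicate 1, with a median difference of -0.011. Against the mean of the empty vector arrays, the 46 genes had a median of 0.05 on MAX vector replicate 1, with 30 above (65.2%, beside 45.4% of all genes), and of -0.07 on MAX vector replicate 2, with 11 above (23.9%, beside 51.2%). The medians of complexes I, III and IV, of the ATP synthase and of the assembly factors were each above 0 on MAX vector replicate 1 (0.035 to 0.080) and below 0 on MAX vector replicate 2 (-0.16 to -0.017). MAX vector replicate 1 lay alone on its slide and the other 3 arrays shared a slide with 1 scan. Cells of a line were also taken at passages 8 and 13. Between the MAX vector replicates, slide, scan, array and passage thus cannot be told apart. On the shared slide alone, the median of the 46 was -0.073, beside 0.0067 over all genes, and Cox4i2 had 0.74 (adjusted p = 0.166 in limma).

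**Figure D5:**
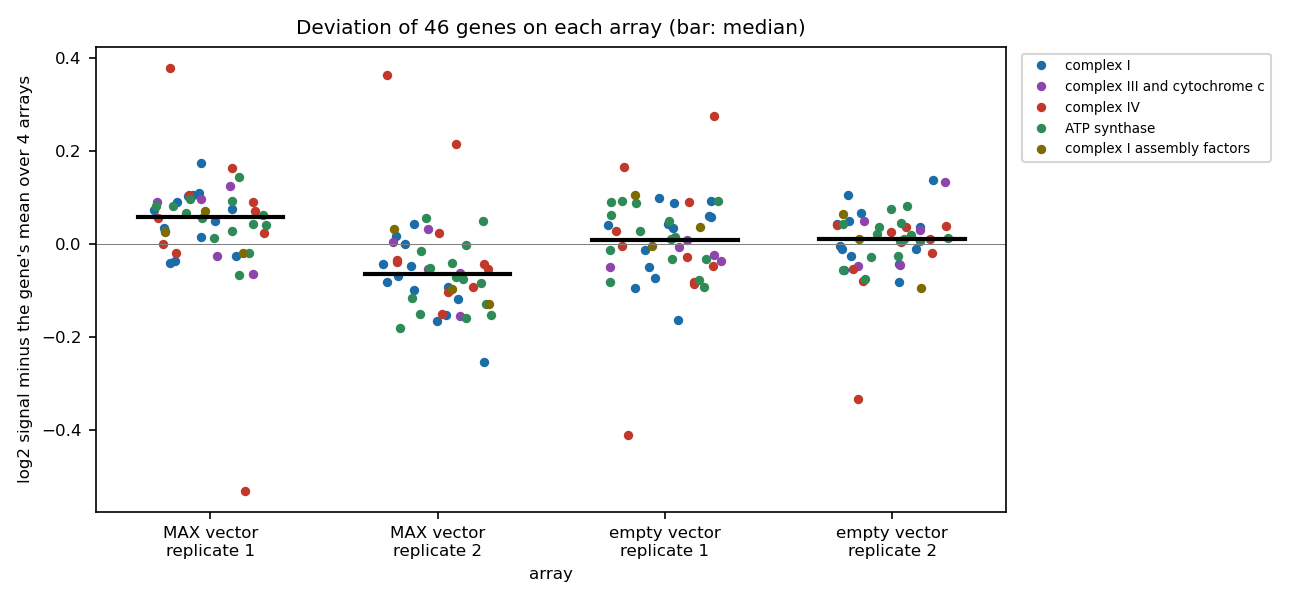
Log2 signal minus the gene's mean over the 4 arrays (vertical axis) for the 46 tested genes on each array (horizontal axis), coloured by complex, with the median as a bar. The medians are above 0 on MAX vector replicate 1 and below 0 on MAX vector replicate 2, and the highest point on each of these 2 MAX vector arrays is Cox4i2.

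Other genes of respiration and its supply held 0 calls over all genes in limma in each of 9 lists with a tested member. In the succinate dehydrogenase list the 4 tested genes had a median of 0.03, with Sdha, the flavoprotein subunit gene, at 0.21 ± 0.10 and Sdhd, a membrane anchor gene, at -0.13 ± 0.11. The 4 tested genes of complex IV assembly and copper delivery lay between 0.06 and 0.11, and the 12 of the citric acid cycle had a median of -0.01, from Ogdh at -0.27 ± 0.09 (adjusted p = 0.298 in limma) to Idh2 at 0.25 ± 0.09 (0.293). Of 10 tested genes of coenzyme Q synthesis, the kinase-like gene Coq8a was highest, at 0.66 ± 0.13 (adjusted p = 0.155), and Coq7, a hydroxylase gene, lowest at -0.17 ± 0.10. In the list of mitochondrial transcription and biogenesis, 8 genes had a median of 0.0025, from Tfb1m, a mitochondrial rRNA methyltransferase gene, at -0.36 ± 0.09 (adjusted p = 0.197) to Polg, the mitochondrial DNA polymerase gene, at 0.31 ± 0.14. The 8 genes of ATP, phosphate and ion exchange had a median of -0.08. Among 10 HIF-linked regulators of respiration, 3 were higher and 2 lower at an unadjusted p under 0.05 in limma, beside 7.93% and 8.21% of all genes. They ran from Egln3, a HIF prolyl hydroxylase gene, at -0.84 ± 0.13 (adjusted p = 0.109) to Bnip3l, a mitophagy receptor gene, at 0.68 ± 0.12 (0.132). The remaining lists had 2 genes of complex I assembly, at 0.05 and 0.06, and Bcs1l of complex III assembly at -0.10 ± 0.09.

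As for the cell type, the chromaffin genes Th and Ddc were well above background on all 4 arrays, Dbh and Slc18a1 on 3, and Syp on none. Summed over the list's 14 genes with a probe, in multiples of each array's 75th percentile, chromaffin and PC12 marker signal was 18.1 and 18.2 with the MAX vector, against 31.2 and 31.6 with the empty vector. Ddc, the brightest, made up 7.75 and 7.68 of these with the MAX vector, against 16.3 and 16.4 with the empty vector. The other genes of the list summed to 10.3 and 10.5 with the MAX vector, against 14.9 and 15.2 with the empty vector. Among them Prph had a log2 fold change of -0.92, while Th went the other way at 2.15. Of the 13 chromaffin markers tested, 10 had fitted values below 0. Epithelial marker signal (7 genes) was 21.9 and 21.4 with the MAX vector, against 7.62 and 8.02 with the empty vector, and all 7 had fitted values above 0. Macrophage marker signal (7 genes, of which Aif1 and Itgam were well above background on no array) was 9.11 and 8.87 with the MAX vector, against 4.89 and 5.63 with the empty vector. Cd14 alone made up 8.40 and 7.65 of these with the MAX vector, against 4.23 and 4.88 with the empty vector, and the other 6 genes summed to 0.706 and 1.22 with the MAX vector, against 0.661 and 0.755 with the empty vector. Fibroblast marker signal (7 genes) was 274 and 273.5 with the MAX vector, against 252 and 269 with the empty vector, mostly from Col3a1 and Vim, while dimmer members went both ways, from Lum at -1.19 and Pdgfrb at -0.58 to Fn1 at 0.45 and Dcn at 0.75 (log2 fold changes, 2 higher and 2 lower at an unadjusted p under 0.05 in limma). Muscle marker signal (7 genes) was 7.29 and 10.3 with the MAX vector, against 11.9 and 11.5 with the empty vector. Actc1, at a log2 fold change of -0.53 (adjusted p = 0.331 in limma), made up most of it on every array. Of the 6 muscle markers tested, 3 had fitted values above 0 and 3 below. Tnnt2 was the highest, at 0.84 (adjusted p = 0.108 in limma). Of the marker genes, Th, Krt13, Krt15 and Krt19 were called higher and Ddc lower in limma. The part of these markers in the Cox4i2 difference was not tested. In cultures like these, a change in the kinds of cells and a change in RNA per cell cannot be told apart. Probes may also read near-identical copies: 28 of the 50 genes have a RefSeq entry named as their pseudogene or like copy.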

How the data were processed

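Total RNA was labelled with Cy3 and hybridised to Agilent rat arrays, 1 sample per array. The scanner files deposited by the authors hold spot intensity, written by Feature Extraction 10.7.3.1 per the file headers (10.7 per the submitters' processing notes), background-subtracted and detrended within each array and not scaled between arrays, with probe annotation of build rn4. The authors' deposited value table holds log2 values. Differences between its columns matched the values used here (correlation 1, with a disagreement of SD 4.27e-07 or less), which settles scale and direction, while the baseline on which each probe is centred stays unknown (column medians -0.005 and -0.006 for MAX vector replicates 1 and 2, -0.033 and -0.011 for empty vector replicates 1 and 2).

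Control spots and outlier spots were removed, which left 89 probes without a value on an array. Spots of 1 probe were averaged on the log2 scale, and the array's 75th percentile over probes was taken off. A probe was well above background where over 50% of its spots were. Such probes made up 64.4% to 71.5% of an array's 41012, and 0 spots were saturated. Testing used 28563 probes well above background on at least 2 arrays, with the probe of highest mean for each of 25355 genes. Accessions were matched without versions to the RefSeq table of GRCr8, which named 26.3% of probes. Groups were compared with lmFit and eBayes of limma 3.58.1 (R 4.3.3), with 3.94 degrees of freedom in all and Benjamini-Hochberg adjustment over all genes; ± stands for the SE of the fitted log2 fold change. On simulated data the fit recovered large changes far more often than small ones, so a gene that misses the threshold is not shown to be unchanged. With 4 arrays, their number limits the precision, and nothing in the labels says that samples came from separate transfections.

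Members, gene lists, markers and promoter motifs were chosen with earlier results of these data known, and the letters for NRF1 were shortened after a longer form had been counted. Named are members with an unadjusted p under 0.05, the 2 highest and 2 lowest of each complex, fixed isoform and core genes, and members below the filter or with probes that differ by over 1 on the log2 scale; other members named for their probes or role were chosen after their values were seen. Of other lists, the highest and lowest genes are named, and lists with fewer than 3 tested genes or a narrow range are summarised. Ndufa4 and Ndufa4l2, to be counted with complex IV, had no probe named here. Values of 1 complex I gene are not reported here by name, though it is in the counts and medians. The files used hold median and not mean spot signals, so the normexp alternative used medians. The correlation of deviations between same-numbered samples was -0.018 across all genes and -0.34 across the 46 members. With 2 arrays a group, this cannot decide whether the replicate numbers follow the passages, and the main fit used no pairing.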

Additional observations from a re-analysis of the deposited data

How the results depend on the processing

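No tested member passed in the main setting, and 17 alternatives were run, 1 of them (the percentile taken over spots) chosen after seeing the data. Cox4i2 kept its direction in all 17, though several of these could not change its fold. It was the 1 member that passed in limma with normexp, with the filter on all 4 arrays and with an intensity trend (1 call each). Where 0 members passed, 1 had an unadjusted p under 0.05 in limma, beside 10.9% to 17.3% of all genes. This leaves aside fits that rest on 1 array in a group. Counting Ndufa4 and Ndufa4l2 with complex I gave no value, since neither had a probe named here.

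Calls over all genes, 213 in the main setting, were 794 with normexp, 541 with median scaling, 515 with the filter on all 4 arrays and 955 with an intensity trend. They were 8 with the slide as a block, on slide 1 alone and without MAX vector replicate 1, which are the same 3 arrays, and 0 without a filter on dim probes (4033 at an unadjusted p under 0.05 in limma) or with the replicate block (3884). Leaving out 1 array gave 0 to 144 (0 without either empty vector array, with 1963 and 2456 at an unadjusted p under 0.05) and 0 members throughout. With the replicate block Cox4i2 had an adjusted p of 0.167 in limma, and the block changed no member's call. With 1 array left in a group, that array is assumed to vary like the other group's.

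Medians of the complexes kept within 0.16 of 0. With the slide as a block or slide 1 alone they were -0.11 for the ATP synthase, -0.16 for assembly factors and -0.024 for complex IV. The mean of a gene's probes gave -0.00029 for complex IV. Leaving out 1 array gave -0.11 to 0.035 for the ATP synthase, -0.093 to 0.080 for complex I, -0.16 to 0.041 for assembly factors, -0.026 to 0.069 for complex III and -0.024 to 0.069 for complex IV. Except for the lower end of complex III (without empty vector replicate 1), the lower ends came without MAX vector replicate 1 and the upper ends without MAX vector replicate 2, so the sign of these medians rests on single arrays.

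Fitted values near 0 changed sign, and none of these was called. On slide 1 alone or with the slide as a block, Atp5mc1 had -0.012, Cox6a2 0.059, Ndufv1 -0.019, Cox8a -0.017, Cox7b -0.074, Cox6a1 -0.021 and Cycs -0.017. With normexp, Atp5f1b had 0.041, Ndufaf7 -0.017, Uqcrc1 0.048, Ndufv1 -0.010 and Atp5mc1 -0.020. Atp5f1b had 0.017 and Atp5mc2 0.021 with the percentile over probes well above background on all arrays, and 0.017 and 0.020 with median scaling. Quantile normalization gave 0.0033 for Atp5f1b, and the mean of probes 0.093 for Atp5mc2. Leaving out 1 array gave -0.16 to 0.14 for Atp5f1b, -0.19 to 0.061 for Atp5if1, -0.012 to 0.12 for Atp5mc1, -0.083 to 0.076 for Atp5mc2, -0.11 to 0.038 for Cox4i1, -0.021 to 0.11 for Cox6a1, -0.69 to 0.059 for Cox6a2, -0.074 to 0.19 for Cox7b, -0.017 to 0.089 for Cox8a, -0.017 to 0.16 for Cycs, -0.16 to 0.041 for Ndufaf3, -0.0084 to 0.12 for Ndufaf7, -0.19 to 0.083 for Ndufs1, -0.077 to 0.19 for Ndufv1 and -0.18 to 0.069 for Uqcrc1. The cause was not tested.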
